A study of Mus musculus with 18 samples.

Results

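The IGF axis was represented by 10 genes of the 21899 in the expression table: the hormone gene *Igf1*, the receptor gene *Igf1r*, the acid-labile subunit gene *Igfals* and the 7 binding protein genes *Igfbp1* to *Igfbp7*. They were picked by gene name and not by a cutoff on measured values. Earlier results of these data were known when the list was made. Their expression was read in liver, epididymal white adipose tissue (eWAT) and muscle of wild-type C57BL/6 male mice, with 3 libraries of control (CON) and 3 of high-salt diet (HSD) mice for each tissue, 18 libraries in all. Muscle was quadriceps. All mice were 18 weeks old. HSD mice had eaten a diet with 8% NaCl and drunk 0.9% saline for 12 weeks, and CON mice had received chow and tap water. By their names, the libraries came from 8 mice, 6 of which gave more than 1 tissue. Values are FPKM, in which fragments are divided by transcript length and library size, so levels of different genes can be set side by side.

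Circulating IGF-I is made mainly by hepatocytes under growth hormone, which acts through the growth hormone receptor, JAK2 and STAT5, while IGF-I made in fat and muscle acts locally. In blood, most IGF-I sits in a ternary complex with IGFBP3 (or IGFBP5) and the acid-labile subunit, which prolongs its stay in the circulation. Several of the other binding proteins form binary complexes that hold IGF-I away from its receptor or carry it to cells. *Igfbp1* is a liver gene that insulin represses.

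Of these genes, *Igfals* and *Igfbp1* have promoters that carry well-known elements for the hormones of this axis, and they are shown here because *Igfals* had the largest difference between the diets in eWAT among the 10 genes and *Igfbp1* one of the larger ones in liver. The windows are 300 bases from RefSeq (build GRCm38.p6, plus strand, 250 bases before and 50 after an annotated start). In *Igfals*, chr17:24877981-24878280, the capitals mark the letters TTCNNNGAA of a STAT5-type element, which begin 58 bases before the start. In *Igfbp1*, chr11:7197537-7197836, the capitals mark CAAAACA, the core of an insulin response element bound by FoxO factors, 108 bases before the start.
Igfals: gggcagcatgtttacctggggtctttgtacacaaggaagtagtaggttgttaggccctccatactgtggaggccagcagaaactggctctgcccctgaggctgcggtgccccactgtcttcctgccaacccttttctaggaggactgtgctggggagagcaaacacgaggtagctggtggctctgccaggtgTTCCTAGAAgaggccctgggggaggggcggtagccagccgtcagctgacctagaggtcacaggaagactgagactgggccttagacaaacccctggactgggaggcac
Igfbp1: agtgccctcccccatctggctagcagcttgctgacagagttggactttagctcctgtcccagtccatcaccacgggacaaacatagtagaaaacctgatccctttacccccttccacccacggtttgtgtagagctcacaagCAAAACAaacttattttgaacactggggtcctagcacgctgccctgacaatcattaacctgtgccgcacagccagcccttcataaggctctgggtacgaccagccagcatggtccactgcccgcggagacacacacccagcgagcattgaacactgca
Searched on both strands, TTCNNNGAA was in 8.30% of the 32851 promoter windows of the genome and CAAAACA in 6.28%. All 10 genes had a window, 13 windows in total. TTCNNNGAA was in 2 of the 3 *Igfals* windows and in no window of the other genes, and CAAAACA was in the *Igfbp1* window and in no window of the other genes. A match of letters is a description of the sequence and does not show that a factor was bound.

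In mm10, *Igf1* (ENSMUSG00000020053) is at chr10:87858265-87937042, *Igf1r* (ENSMUSG00000005533) at chr7:67952827-68233668, *Igfals* (ENSMUSG00000046070) at chr17:24865997-24882010, *Igfbp4* (ENSMUSG00000017493) at chr11:99041244-99054392 and *Igfbp6* (ENSMUSG00000023046) at chr15:102144362-102149511, all on the plus strand, and *Igfbp7* (ENSMUSG00000036256) is at chr5:77349240-77408041 on the minus strand. *Igf1* overlaps the antisense gene *Igf1os* and *Igfbp7* overlaps *Polr2b*, and whether fragments were counted by strand is not stated.

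Some libraries stood apart in ways that touch these genes. Total fragments on genes, recovered from the FPKM, ranged from 7628071 to 16637489 per library. All 10 hepatocyte markers were at 1 FPKM or more in each liver library, and likewise the 10 adipocyte markers in eWAT and the 10 fibre markers in muscle. The hepatocyte markers summed to 16950 FPKM in CON14L and 39318 in HS5L, against 65060 to 87216 in the other liver libraries. The liver library CON16L also carried skeletal muscle transcripts: the 10 fibre markers summed to 4202 FPKM, against 2.93 to 6.30 in the other liver libraries. The eWAT library HS3W carried transcripts of epididymal epithelium, whose 8 markers summed to 15658 FPKM against 1.05 to 13.1 in the other eWAT libraries, while its adipocyte markers summed to 7423 FPKM against 17392 to 24055. Mitochondrially encoded genes took 60.82%, 25.71% and 37.84% of the fragments in the livers CON14L, CON16L and CON72L and 16.26%, 15.38% and 44.39% in HS2L, HS4L and HS5L, and between 3.52% and 16.5% in the other tissues. CON16L, HS5L and the eWAT library HS5W are missing from the study's table of sequencing quality, and the other 15 libraries are called the study's libraries here.

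The levels of most IGF genes differed between the tissues. In CON mice, *Igf1* was highest in liver at 71.4 ± 15.0 FPKM (SD, n = 3), lower in eWAT at 31.1 ± 2.36 and lowest in muscle at 2.18 ± 0.126, and the libraries of the 3 tissues did not overlap. *Igf1r*, the receptor of IGF-I, was lowest in liver, with 0.261 ± 0.119 FPKM in liver, 2.94 ± 0.286 in eWAT and 1.19 ± 0.0223 in muscle. *Igf2*, the other IGF ligand, stayed at or below 0.0590 FPKM in every library, and *Igf2r*, the receptor that clears IGF-II, lay between 1.96 and 18.5 FPKM.

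*Igfbp1* and *Igfbp2* were highest in liver. *Igfbp1* was at 21.1 ± 6.65 FPKM in CON liver and 0.839 ± 0.778 in CON eWAT, and 4 of the 6 muscle libraries had no fragment of it, which allows up to 0.166 FPKM (3 fragments) in the shallowest of them. *Igfbp2* was at 115.7 ± 91.0 FPKM in CON liver, 3.19 ± 1.01 in CON eWAT and 0.122 ± 0.211 in CON muscle, where 2 of the 3 libraries had no fragment, which allows up to 0.145 FPKM. Their low eWAT values stood beside traces of hepatocyte transcripts there: the markers had a median of 0.401% to 1.15% of their CON liver level in the CON eWAT libraries, a share that corresponds to 0.464 to 1.33 FPKM of *Igfbp2* and 0.0848 to 0.243 of *Igfbp1*. In the HSD eWAT libraries the median was 0.0203% to 0.0463%. That share corresponds to 0.0235 to 0.0536 FPKM of *Igfbp2*, which was at 2.48 to 8.10, and 0.00428 to 0.00977 of *Igfbp1*, which was at 0.251 to 1.65. The source of these low values was not tested. 

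*Igfbp5* was highest in muscle and eWAT, at 119.3 ± 26.5 FPKM in CON muscle, 74.3 ± 2.70 in CON eWAT and 6.10 ± 7.85 in CON liver, where CON16L alone had 15.2. *Igfbp6* and *Igfbp7* were highest in CON eWAT, at 95.5 ± 34.2 and 261.2 ± 49.6 FPKM, against 32.7 ± 4.16 and 39.8 ± 7.59 in muscle and 7.94 ± 10.4 and 35.0 ± 14.3 in liver. *Igfbp3* and *Igfbp4* were found in all tissues, with *Igfbp3* at 6.97 ± 2.53 FPKM in liver, 18.4 ± 0.910 in eWAT and 7.79 ± 0.819 in muscle, and *Igfbp4* at 94.7 ± 42.2, 145.1 ± 3.67 and 9.66 ± 0.315. *Igfals*, usually described as a product of hepatocytes, had overlapping levels in CON eWAT (12.6, 20.7 and 21.6 FPKM) and CON liver (6.95, 21.6 and 17.2) and was at 1.19 ± 0.187 FPKM in muscle. The hepatocyte share of those 3 eWAT libraries corresponds to 0.107, 0.176 and 0.0613 FPKM of it.

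**Figure D1:**
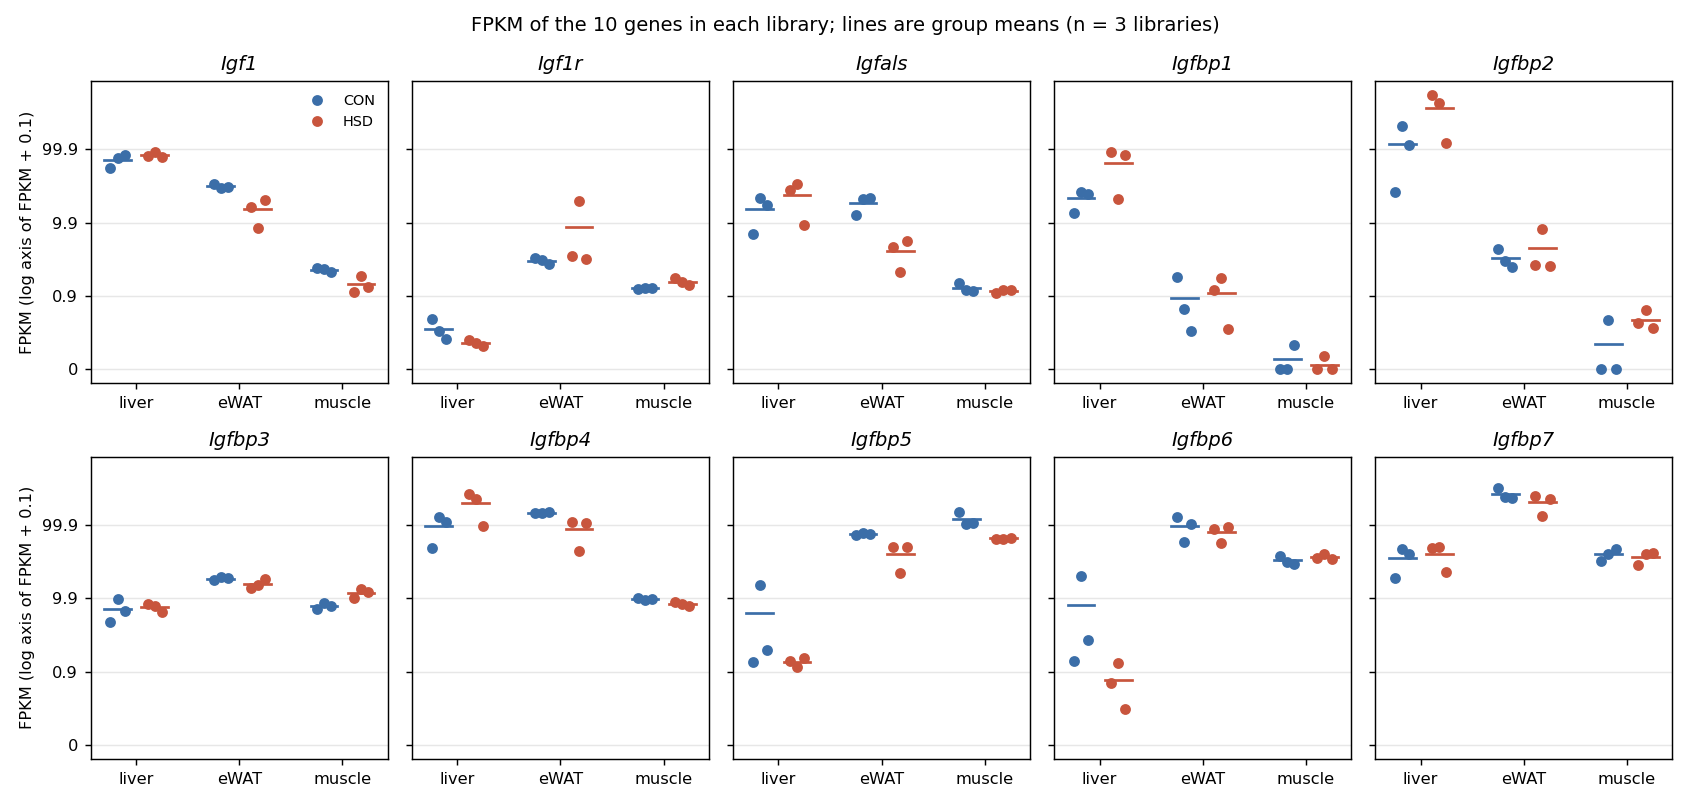
FPKM of each of the 10 genes (vertical log axis of FPKM + 0.1) in liver, eWAT and muscle; points are libraries, blue for CON and red for HSD, and lines are group means of 3 libraries. *Igf1*, *Igfbp1* and *Igfbp2* are highest in liver, *Igfbp5* in muscle and eWAT, and *Igfals* overlaps between CON eWAT and CON liver and is lower in all 3 HSD eWAT libraries.

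In the test of tissue differences over the 9 CON libraries (limma, adjusted p under 0.05 and at least 2-fold), 8 of the 10 genes passed between liver and eWAT, 8 between liver and muscle and 8 between eWAT and muscle. These counts stand beside 69.4%, 50.1% and 54.9% of all genes in the same comparisons. Between eWAT and muscle all 8 were higher in eWAT, as were 46.9% of all genes. *Igfbp2* had the largest difference, a log2 fold change of 7.16 ± 0.644 (SE) in liver over muscle (adjusted p = 1.16e-05), whose size depends on the pseudocount because of the muscle libraries without a fragment, and *Igf1* one of 4.72 ± 0.188 (adjusted p = 1.03e-07). *Igfals* and *Igfbp4* did not pass between liver and eWAT (-0.36 ± 0.381 and -0.73 ± 0.339), *Igfbp3* and *Igfbp7* not between liver and muscle (-0.20 ± 0.233 and -0.26 ± 0.351), and *Igfbp5* and *Igfbp6* not between eWAT and muscle (-0.66 ± 0.687 and 1.47 ± 0.761).

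The scale of the libraries matters to these tissue differences. Over all genes the median log2 difference was -1.36 for liver over eWAT, -0.52 for liver over muscle and 0.93 for eWAT over muscle, and 917 of the 8768 genes called between liver and eWAT were higher in liver. With median-ratio scaling the first median was 0.03 and 2625 of 5189 called genes were higher in liver. *Igfals* and *Igfbp4* then turned to 1.25 and 0.92 in liver over eWAT and *Igfbp3* to 0.19, with *Igfals* called as higher in liver. The members called between eWAT and muscle numbered 5, beside 4720 of 12396 genes. *Igf1*, *Igfbp1* and *Igfbp2* were called higher in liver than in eWAT, and *Igf1r* and *Igfbp5* to *Igfbp7* lower, with either scaling.

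The make-up of the binding protein transcripts is given as shares, without a test. In liver, *Igfbp2* and *Igfbp4* made up most of the summed FPKM of *Igfbp1* to *Igfbp7*, with *Igfbp2* at 22.9%, 45.8% and 38.2% in CON and 56.9%, 58.3% and 36.8% in HSD. *Igfbp7* took 16.7%, 10.2% and 13.5% in CON liver and 4.98%, 6.94% and 6.70% in HSD liver. *Igfbp1* took 11.9%, 5.68% and 8.13% in CON liver and 9.53%, 2.86% and 24.8% in HSD liver. In eWAT, *Igfbp7* led with 39.8% to 48.4% in all 6 libraries. In muscle, *Igfbp5* led with 63.5%, 53.3% and 52.8% in CON and 43.9%, 38.7% and 41.0% in HSD, so that the groups did not overlap, and *Igfbp3* and *Igfbp6* took 2.95% to 4.46% and 14.8% to 16.3% in CON against 6.71% to 8.07% and 21.2% to 24.1% in HSD. The shares of a library sum to the whole, so that a lower share of *Igfbp5* raises the others. *Igfbp2* and *Igfbp5* (ENSMUSG00000039323 and ENSMUSG00000026185) are neighbours on chromosome 1 that point toward each other (chr1:72824503-72852474 on the plus and chr1:72857932-72874884 on the minus strand, mm10), with 5457 bases between their ends. *Igfbp1* and *Igfbp3* (ENSMUSG00000020429 and ENSMUSG00000020427) lie in the same way on chromosome 11 (chr11:7197782-7202546 and chr11:7206086-7213923), 3539 bases apart.

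**Figure D2:**
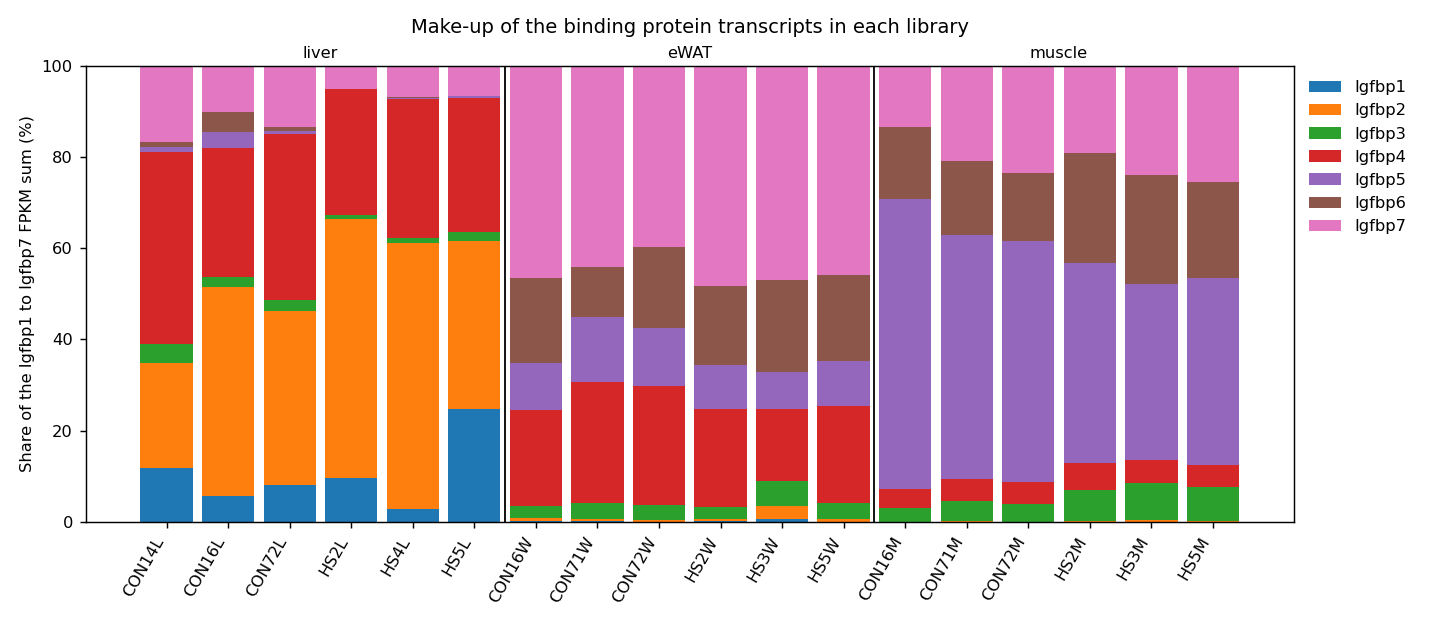
Share of each binding protein gene in the summed FPKM of *Igfbp1* to *Igfbp7* (vertical axis, %) in each library (horizontal axis), grouped by tissue with CON before HSD. *Igfbp2* and *Igfbp4* fill most of the liver bars, *Igfbp7* leads in eWAT and *Igfbp5* in muscle, where its share is 52.8% to 63.5% in CON and 38.7% to 43.9% in HSD.

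HSD was then compared with CON within each tissue, where a gene was called if its limma adjusted p was under 0.05 and it differed at least 2-fold (1 on the log2 scale of FPKM + 0.5). In eWAT, *Igfals* and *Igf1* had lower values in all HSD libraries than in any CON library, and neither was called over all 6. *Igfals* was at 12.6, 20.7 and 21.6 FPKM in CON16W, CON71W and CON72W and at 4.54, 2.05 and 5.55 in HS2W, HS3W and HS5W, the lowest CON library being above the highest HSD library. *Igf1* was at 33.8, 29.3 and 30.3 FPKM in CON and 16.4, 8.37 and 20.3 in HSD, again without overlap. The log2 fold changes were -2.10 ± 0.377 (adjusted p = 0.122) for *Igfals* and -1.11 ± 0.317 (adjusted p = 0.202) for *Igf1*.

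*Igfbp4*, a binding protein that holds IGF-I until it is cleaved by PAPP-A, and *Igfbp5*, which also binds to the extracellular matrix, had the same pattern in eWAT. *Igfbp4* was at 143.8, 142.3 and 149.3 FPKM in CON and 109.6, 44.1 and 104.9 in HSD (log2 fold change -0.86 ± 0.361, adjusted p = 0.309). *Igfbp5* was at 71.9, 77.2 and 73.9 FPKM in CON and 49.4, 21.9 and 49.6 in HSD (-0.97 ± 0.329, adjusted p = 0.247). For both, CON libraries lay close together and above all HSD libraries. *Igfbp3*, *Igfbp6* and *Igfbp7* had log2 fold changes between -0.41 and -0.24 with overlapping groups, with *Igfbp7* at 318.2, 237.5 and 227.9 FPKM in CON and 248.1, 130.1 and 227.0 in HSD.

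Several of these values turned on HS3W. *Igf1r* was at 19.3 FPKM there, against 2.65 to 3.45 in the other 5 libraries, and *Igfbp2* at 8.10 against 2.38 to 4.32. Without this library, 160 of 13245 genes were called in eWAT, or 1.21%, and *Igfals* was the one member among them: it fell by 1.73 on the log2 scale (adjusted p = 0.0249). *Igf1* (-0.75, adjusted p = 0.0275), *Igfbp5* (-0.58, adjusted p = 0.0227) and *Igfbp4* (-0.44, adjusted p = 0.0298) then passed the p threshold but not the fold threshold, and *Igf1r* had 0.13 (adjusted p = 0.50). In HS2W and HS5W, *Igfals* was at 24.8% and 30.4% of the CON mean and *Igf1* at 52.8% and 65.0%, while the 10 adipocyte markers lay between 52.9% and 157.2%.

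Over all 6 libraries, no gene was called in eWAT, 0% of 13740, although 2298 genes (16.7%) had an unadjusted p under 0.05, and 3 of the 10 members did, *Igfals*, *Igf1* and *Igfbp5*. Fits of the recovered fragments with limma voom called 0 genes as well. Weighting the libraries by limma's arrayWeights called 220 genes, 1.60% of all, and *Igfals* alone of the members (adjusted p = 0.0140). With these weights, limma gave 4280 of the 13740 genes an unadjusted p under 0.05, so this call says little about a single gene. In the study's eWAT libraries, which leave out HS5W and keep HS3W, 0 of 13844 genes were called. HSD and CON libraries were fully separate for 4 of the 10 members, all lower in HSD, and for 28.6% of all genes. Markers of some other cell types also differed between the groups: the 8 macrophage markers summed to 375.3 to 575.7 FPKM in CON and 153.7 to 344.2 in HSD, and the 10 fibroblast and stromal markers to 634.5 to 831.2 and 276.1 to 580.5, of which HS3W gave the lowest. Other lists overlapped: endothelial markers summed to 449.6 to 519.8 FPKM in CON and 202.5 to 622.5 in HSD. Mesothelial markers summed to 27.7 to 50.1 and 45.0 to 162.5, and hepatic stellate and mural markers to 333.4 to 398.3 and 316.4 to 583.1. The part of any of these cell types in the lower *Igf1*, *Igfbp4* and *Igfbp5* was not tested. In bulk tissue, fewer cells of a type and less RNA per cell cannot be told apart. Hepatocyte markers summed to 127.9 to 359.1 FPKM in CON eWAT and 8.79 to 20.0 in HSD eWAT, and the CON share corresponds to 0.287 to 0.822 FPKM of *Igf1*, out of 29.3 to 33.8.

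**Figure D3:**
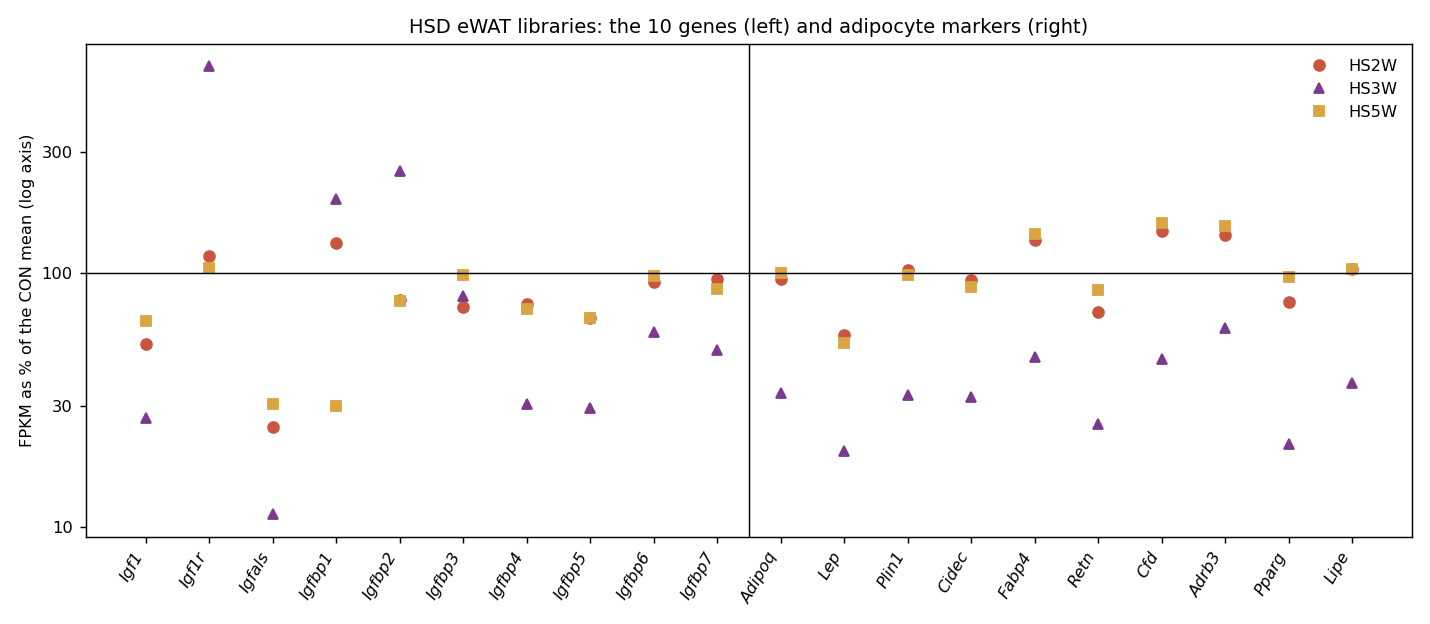
FPKM of each HSD eWAT library as a percentage of the CON mean (vertical log axis), for the 10 IGF genes on the left and 10 adipocyte markers on the right. *Igf1*, *Igfals*, *Igfbp4* and *Igfbp5* are below 100% in all 3 libraries, and HS3W (triangles) is also low for every adipocyte marker, at 19.9% to 61.0%.

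The genes above and below the hormone in eWAT were also described. *Ghr*, the growth hormone receptor, was at 206.0, 200.5 and 217.3 FPKM in CON and 147.7, 57.8 and 155.2 in HSD eWAT, without overlap (-0.92 ± 0.392, adjusted p = 0.315; without HS3W -0.46, adjusted p = 0.0312). *Pik3r1*, which codes for the regulatory subunits of phosphoinositide 3-kinase below the insulin and IGF-I receptors, was at 45.6, 50.4 and 42.8 FPKM in CON and 23.7, 22.1 and 22.3 in HSD (-1.01 ± 0.0978, adjusted p = 0.0830; without HS3W -0.99, adjusted p = 0.0212). *Htra1*, a secreted protease that cuts binding proteins, named here after its values were seen, was at 78.2, 71.7 and 73.8 FPKM in CON and 47.9, 26.0 and 50.1 in HSD (-0.90 ± 0.262, adjusted p = 0.205; without HS3W -0.60, adjusted p = 0.0227). *Pappa*, the protease of *Igfbp4*, had the largest positive value of the pathway genes in eWAT, 0.84 ± 0.616, which came from 2.36 FPKM in HS3W against 0.0981 to 0.233 in the others.

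Of the genes that act below the growth hormone receptor, *Jak2*, its kinase, named here after its values were seen, was at 13.3, 12.7 and 13.2 FPKM in CON and 15.9, 18.7 and 15.1 in HSD eWAT, without overlap (0.33 ± 0.106, adjusted p = 0.232). *Stat5b* (0.00 ± 0.159), *Socs2* (0.21 ± 0.185) and *Cish* (0.05 ± 0.418), the last 2 being feedback inhibitors induced by STAT5, had overlapping groups and did not pass. Of the 12 growth hormone signalling genes tested, 8 were higher and 4 lower in HSD with none called, and the median log2 fold change was 0.04 beside 0.08 over all genes. Of the 9 tested genes for proteases of the binding proteins and their inhibitors, 3 were higher and 6 lower (median -0.40), and of the 18 tested genes below the receptors 10 were higher and 8 lower (median 0.01), again with none called. Of the 3 tested relatives of the ligands and receptors, 2 were higher and 1 lower (median 0.11). *Insr* had 0.33 ± 0.143 (without HS3W 0.45, adjusted p = 0.0474), *Igf2r* 0.11 ± 0.127 and *Stc2*, an inhibitor of PAPP-A, -0.39 ± 0.261.

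In liver, *Igfbp1*, *Igfbp2* and *Igfbp4* had higher mean levels in HSD mice, but with wide spreads and no call. *Igfbp2* was at 25.9, 207.9 and 113.3 FPKM in CON14L, CON16L and CON72L and at 547.4, 423.8 and 122.4 in HS2L, HS4L and HS5L. *Igfbp1* was at 13.5, 25.8 and 24.1 FPKM in CON and 91.7, 20.8 and 82.3 in HSD, and *Igfbp4* at 47.5, 128.9 and 107.8 in CON and 265.0, 221.6 and 97.2 in HSD. In each of them 2 HSD libraries were above all CON libraries and 1 was not, which was HS4L for *Igfbp1* and HS5L for *Igfbp2* and *Igfbp4*. The log2 fold changes were 1.84 ± 0.883 for *Igfbp2* (adjusted p = 0.764), 1.39 ± 0.612 for *Igfbp1* (adjusted p = 0.764) and 1.03 ± 0.568 for *Igfbp4* (adjusted p = 0.764).

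The 2 liver genes of the ternary complex and the hormone itself overlapped between the diets. *Igfals* was at 6.95, 21.6 and 17.2 FPKM in CON and 28.0, 33.4 and 9.20 in HSD (0.56 ± 0.600), and *Igfbp3* at 4.65, 9.67 and 6.60 in CON and 8.12, 7.69 and 6.43 in HSD (0.13 ± 0.307). *Igf1* was at 54.7, 75.7 and 83.8 FPKM in CON and 79.4, 91.0 and 78.0 in HSD (0.23 ± 0.348, adjusted p = 0.848). *Igfbp7* had 0.20 ± 0.491. *Igf1r* was below the expression limit in liver, with 0.156 to 0.390 FPKM in CON and 0.111 to 0.149 in HSD, and was not tested there.

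*Igfbp5* and *Igfbp6* were low in liver outside CON16L. *Igfbp5* was at 1.27, 15.2 and 1.87 FPKM in CON and 1.28, 1.07 and 1.44 in HSD (-1.20 ± 0.749), and *Igfbp6* at 1.30, 20.0 and 2.56 in CON and 0.604, 1.21 and 0.210 in HSD (-2.13 ± 0.847, adjusted p = 0.764). CON16L held both high values and is the library with muscle transcripts, whose markers had a median of 7.11% of their CON muscle level there (1.57% to 42.2%). That share of the muscle level is 8.48 FPKM of *Igfbp5* and 2.33 of *Igfbp6*. CON16L also had the highest liver sums of fibroblast and stromal markers (66.5 FPKM against 16.6 to 38.7) and endothelial markers (36.5 against 13.2 to 17.2). Its macrophage markers did not stand apart (45.5 against 14.2 to 48.2). The part of muscle or of these cell types in the 2 high values was not tested. Over the 4 liver libraries of the study, which leave out CON16L and HS5L, the log2 fold changes of *Igfbp5* and *Igfbp6* were -0.29 and -0.77.

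No gene was called over all 6 liver libraries, 0% of 10317, with 592 genes (5.74%) at an unadjusted p under 0.05 and 1 of the 9 members tested, *Igfbp6*. The limma voom fits called 0 genes there too. Of the 9 members tested, *Igfbp6* was the one with fully separate HSD and CON libraries, beside 12.1% of all genes tested, and the untested *Igf1r* was fully separate as well. Both separations rest on few fragments. Before division by library size, *Igfbp6* had 14 in HS4L against 11 in CON14L, and *Igf1r* 26 in HS2L against 24 in CON72L. Over the 4 liver libraries of the study, 35 of 9970 genes were called (0.351%) and none of the members, with *Igfbp2* at 3.14 ± 0.731 (adjusted p = 0.0591), *Igfbp4* at 1.75 ± 0.579 (adjusted p = 0.0962) and *Igfals* at 1.43 ± 0.467 (adjusted p = 0.0939). In these libraries the mitochondrial share was 60.82% and 37.84% in CON and 16.26% and 15.38% in HSD. Diet and this share cannot be told apart there. By arrayWeights, 926 genes (8.98%) were called, among them *Igfbp1*, *Igfbp2* and *Igfbp4* as higher and *Igfbp6* as lower. With these weights, limma gave 7414 of the 10317 genes an unadjusted p under 0.05, against 592 without them. Its calls therefore say little about single genes.

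Several liver values ran in the order of the share of mitochondrially encoded transcripts. Ordered by that share from 15.38% to 60.82%, the libraries were HS4L, HS2L, CON16L, CON72L, HS5L and CON14L, and in this order *Igfals* was at 33.4, 28.0, 21.6, 17.2, 9.20 and 6.95 FPKM. *Igfbp4* and *Igfbp2* also had their 2 highest values in HS2L and HS4L, then CON16L, and their lowest in CON14L. *Igfbp1* did not keep to it, with 82.3 FPKM in HS5L. When mitochondrially encoded genes were left out and FPKM rescaled, the median of all genes moved from 0.13 to -0.37, *Igfbp2* was at 1.29 ± 0.455, *Igfbp4* at 0.48 ± 0.257 and *Igfals* at 0.02 ± 0.347, and *Igf1*, *Igfbp3* and *Igfbp7* turned to -0.32, -0.39 and -0.34. CON14L and HS5L, which had the highest shares, also had the lowest hepatocyte marker sums. The part of this share in the diet difference was not tested further, and that of these sums was not tested.

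**Figure D4:**
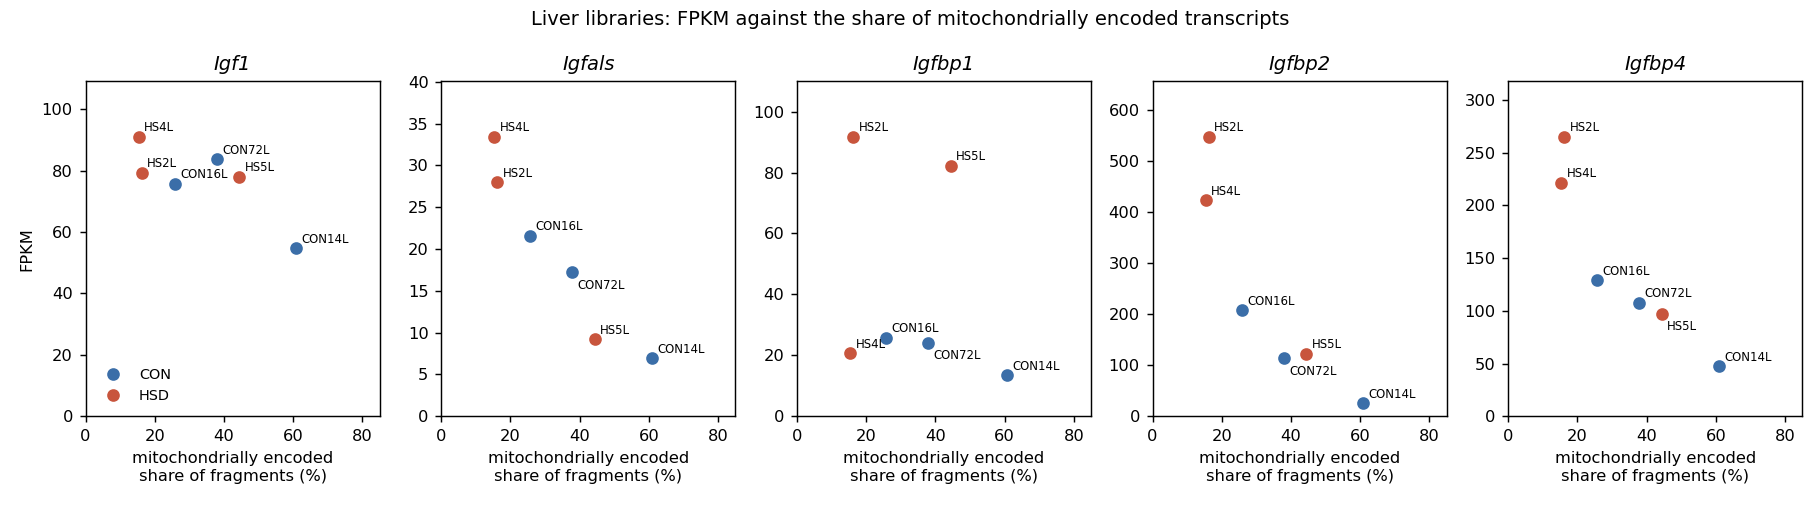
FPKM (vertical axes) of 5 IGF genes in the 6 liver libraries against the share of fragments from mitochondrially encoded genes (horizontal axes, %), with CON in blue and HSD in red. *Igfals*, *Igfbp2* and *Igfbp4* are highest in HS2L and HS4L, which have the lowest shares, and lowest in CON14L, which has the highest, while *Igfbp1* is high in HS5L too.

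None of the other pathway genes was called in liver. *Ghr* was at 20.3, 32.9 and 30.4 FPKM in CON and 39.8, 55.6 and 20.0 in HSD (0.37 ± 0.448), and *Stat5b* at 7.55, 8.82 and 7.56 in CON and 11.5, 10.2 and 13.3 in HSD, without overlap (0.52 ± 0.247, adjusted p = 0.764). *Cish* had the largest negative value of the pathway genes, -0.82 ± 0.548, which came from 3.72 FPKM in CON14L against 0.375 to 0.710 in the other 5. *Grb14*, an adaptor that inhibits the insulin receptor, had the largest positive one, 0.64 ± 0.357. *Insr* was at 6.62, 6.57 and 6.47 FPKM in CON and 8.33, 8.83 and 7.74 in HSD (0.32 ± 0.219), *Socs2* had -0.07 ± 0.329 and *Igf2r* 0.26 ± 0.219. Of the 11 growth hormone signalling genes tested 9 were higher and 2 lower, and of the 16 below the receptors 13 were higher and 3 lower, with medians of 0.24 and 0.22 beside 0.13 over all genes and none called. Of the 4 proteases and inhibitors tested 1 was higher and 3 lower (median -0.09), and both tested relatives of the ligands and receptors were higher (median 0.29).

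The genes most like a member across the 6 liver libraries, by Pearson r of log2(FPKM + 0.5) among 3965 genes with a mean of at least 5 FPKM, were *Prg4* (0.995), *Rida* (0.984) and *Mindy3* (0.983) for *Igf1*. For *Igfals* they were *Fam136a*, *Ubxn4* and *Tmed7* (0.998 each), and for *Igfbp2* *Coa3* and *Mrps31* (0.999 each) and *Sar1b* (0.998). The 6 points are the same libraries for every gene and differ in their mitochondrial share.

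In muscle, *Igfbp5*, the most abundant binding protein transcript there, was lower in HSD. It was at 149.9, 102.9 and 105.2 FPKM in CON16M, CON71M and CON72M and at 64.7, 64.0 and 66.0 in HS2M, HS3M and HS5M, with every HSD library below every CON library. It fell by 0.85 on the log2 scale (SE 0.155, adjusted p = 0.0452), to 0.554-fold, which passed the p threshold but not the fold threshold. Its adjusted p was under 0.05 in 9 of 19 alternatives and ranged from 0.0191 to 1, always with a negative sign. With 1 library left out it was 0.0425 to 0.122, above 0.05 without each library except HS2M, and it was 0.0663 with median-ratio scaling.

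*Igfbp3* and *Igf1* differed in opposite directions in muscle without passing. *Igfbp3*, the main carrier of IGF-I in blood, was at 6.97, 8.61 and 7.80 FPKM in CON and 9.89, 13.3 and 12.0 in HSD (0.56 ± 0.141, adjusted p = 0.104). *Igf1* was at 2.27, 2.24 and 2.04 FPKM in CON and 1.02, 1.79 and 1.21 in HSD (-0.57 ± 0.165, adjusted p = 0.140). Neither overlapped between the groups. *Igf1r* was at 1.16, 1.20 and 1.20 FPKM in CON and 1.64, 1.44 and 1.30 in HSD (0.21 ± 0.130, adjusted p = 0.458).

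The remaining members were close between the diets in muscle. *Igfbp4* was at 9.98, 9.35 and 9.66 FPKM in CON and 8.81, 8.34 and 7.65 in HSD, without overlap but with a log2 fold change of -0.22 ± 0.112. *Igfbp6*, *Igfbp7* and *Igfals* overlapped, with 0.16 ± 0.129, -0.14 ± 0.183 and -0.11 ± 0.139. *Igfbp1* and *Igfbp2* were below the expression limit and not tested.

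In muscle, 35 of 10834 genes were called (0.323%), 11 higher and 24 lower in HSD, or 13 and 14 with median-ratio scaling, and none of the 8 members tested. Of the members, 3 had an unadjusted p under 0.05, beside 16.3% of all genes, and 5 were fully separate between HSD and CON, beside 22.3%. A fit that blocked on replicate number called 54 genes and again no member, while the adjusted p was 0.0191 for *Igfbp5* and 0.0346 for *Igfbp3*. No label pairs CON with HSD mice by that number. The block was singled out for muscle from correlations in these same data, so its p-values are not separate support. The fibroblast and stromal markers summed to 148.1 to 192.8 FPKM in CON muscle and 126.0 to 136.7 in HSD muscle, and the macrophage markers to 38.0 to 67.3 and 30.7 to 35.1. Endothelial markers overlapped, with 91.1 to 106.6 FPKM in CON muscle and 72.9 to 104.7 in HSD muscle. The part of any of these cell types in the lower *Igfbp5* was not tested.

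Among the pathway genes of muscle, *Grb14* had the largest negative value (-0.77 ± 0.196, adjusted p = 0.104), with 3.35, 4.10 and 3.76 FPKM in CON and 1.48, 2.93 and 1.74 in HSD. *Ghr* (0.07 ± 0.126), *Stat5b* (0.19 ± 0.174), *Socs2* (-0.38 ± 0.256), *Cish* (-0.68 ± 0.484), *Insr* (0.17 ± 0.142), *Stc2* (0.01 ± 0.165) and *Igf2r* (-0.44 ± 0.192) did not pass. Of the 18 tested genes below the receptors 11 were higher and 7 lower, and of the 11 growth hormone signalling genes 5 were higher and 6 lower, with none called and medians of 0.11 and -0.02 beside -0.06 over all genes. Of the 6 proteases and inhibitors tested 3 were higher and 3 lower (median -0.13), and of the 2 relatives of the ligands and receptors 1 was higher and 1 lower (median -0.13).

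**Figure D5:**
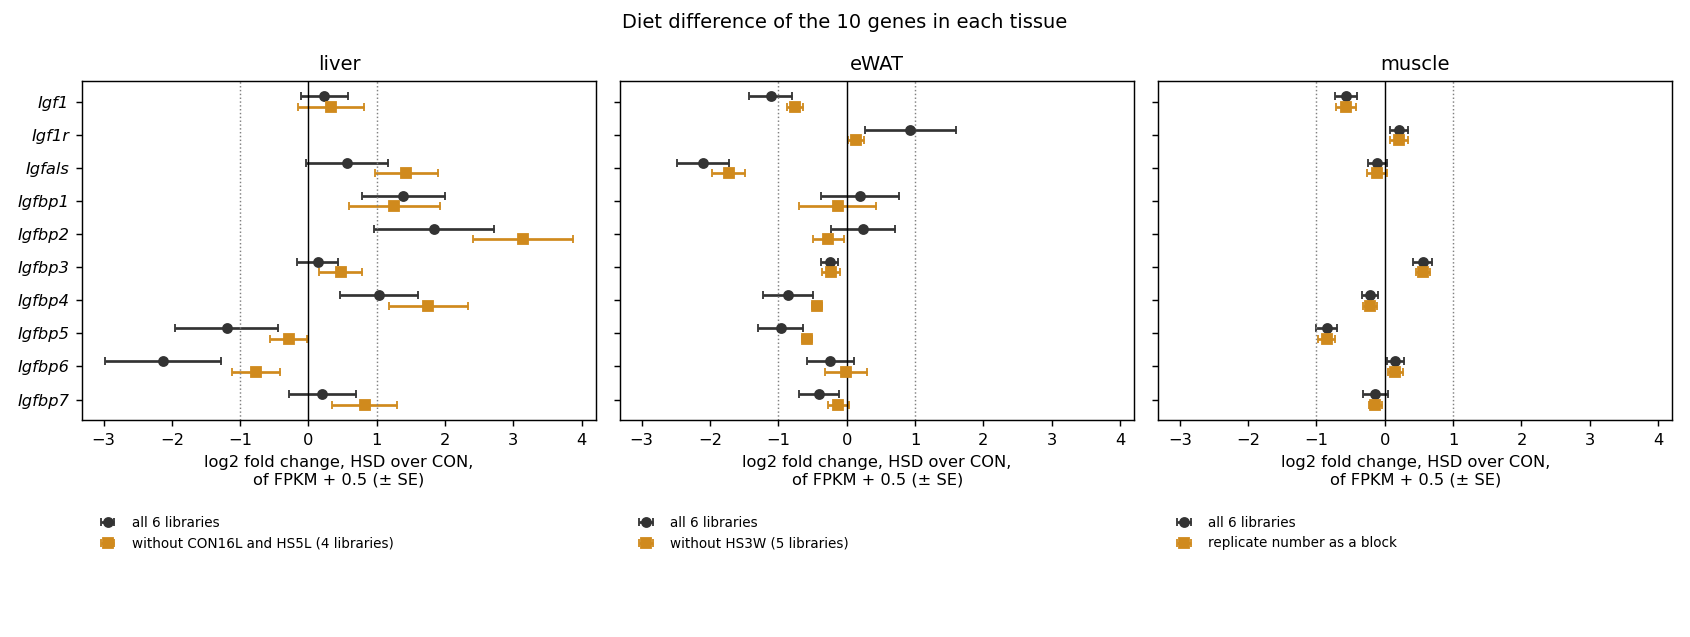
Log2 fold change of HSD over CON (horizontal axes, log2 of FPKM + 0.5, bars are SE) for the members tested in each tissue. Black circles are all 6 libraries; orange squares are the 4 liver libraries of the study, the 5 eWAT libraries without HS3W and muscle blocked on replicate number. *Igfals* is the lowest value in eWAT with and without HS3W, *Igfbp2* the highest in liver, and *Igfbp5* the lowest in muscle.

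Whether the response to HSD differed from tissue to tissue was tested with interaction terms over all 18 libraries. No member was called, beside 99 of 13067 genes (0.758%) for liver against eWAT, 8 (0.0612%) for liver against muscle and 0% for eWAT against muscle, where limma gave 1045 genes an unadjusted p under 0.05 and limma with arrayWeights called 362. *Igfals* came closest, with a diet effect 2.66 ± 0.646 higher on the log2 scale in liver than in eWAT (adjusted p = 0.0762), followed by *Igf1* with 1.34 ± 0.372 (adjusted p = 0.132) and *Igfbp4* with 1.89 ± 0.585 (adjusted p = 0.179). Over the 15 libraries of the study, in which HS5W is left out and HS3W kept, 2455 genes (18.7%) were called for liver against eWAT and 4 members with them, *Igfals* at 3.79 ± 0.522 (adjusted p = 0.00174), *Igfbp4* at 2.81 ± 0.516, *Igfbp2* at 2.64 ± 0.805 and *Igf1* at 1.69 ± 0.389. The liver libraries in that fit are those in which diet and mitochondrial share cannot be told apart. *Pik3r1* was the one pathway gene called over all 18 libraries, with 1.47 in liver over eWAT (adjusted p = 0.00534).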

How the data were processed

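Total RNA of 3 tissues was sequenced in 18 libraries. The authors aligned trimmed reads with hisat2 (mm10) and made the deposited FPKM with cuffdiff on Ensembl gene models, and the notes of the submitters also name mm9 and HTSeq. The annotation release is not stated, and neither is whether fragments were counted by strand, which bears on genes that overlap. Exon lengths and positions were taken from GENCODE M21 (mm10). With these lengths, 18317 of the 18822 genes above 0 came out as whole fragments in all libraries within 0.01 (97.3%), all 10 members among them.

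Groups were taken from the labels. limma 3.58.1 (R 4.3.3) was run on log2(FPKM + 0.5), keeping genes whose mean was at least 0.5 FPKM, with a variance trend and Benjamini-Hochberg adjustment over all genes tested. This scale understates the change of low genes. Each tissue was fitted alone with diet as the only term, tissue differences over the 9 CON libraries and interactions over all 18. By their names, the libraries of a tissue are different animals, and p-values of the fits within a tissue measure the spread between them. The tissue and interaction fits treated libraries as independent, although 6 of the 8 mice gave more than 1 tissue. With the animal as a random block, limma again called 8 members in each comparison of CON tissues. Beside them stood 8760 (liver and eWAT), 6314 (liver and muscle) and 6953 (eWAT and muscle) of 12637 genes. This block called 0 members in each interaction, beside 101, 8 and 0 of 13067 genes in the same order. Depth is the total of recovered fragments, and floors of 3 fragments cover counting error only. Members, pathway and marker lists, the rule for named genes (all members, called list genes, the largest value in each direction per tissue, 9 genes on which members depend and the 3 genes most like *Igf1*, *Igfals* and *Igfbp2* in liver) and the alternatives were chosen with earlier results of these data known. *Htra1* and *Jak2* are outside that rule. A gene that the rule names is not reported here. The alternatives changed the pseudocount, the filter, the scaling, the variance model, the block and the libraries. The fit was also run on simulated fragments with a spread set in advance and without the mitochondrial, muscle and epididymal differences between libraries. That run does not show how the fit performs on these libraries. Same-numbered CON and HSD libraries had deviations from the group means that correlated across genes at 0.383, 0.177 and 0.184 in muscle. In the other tissues the correlations were -0.473 to 0.414. No label pairs CON with HSD mice. The replicate block was an alternative in every tissue and called 0 genes in liver and in eWAT. It is described for muscle only, a choice that rests on these correlations. limma voom on the recovered fragments was added after the data were seen. Python 3.11.15, numpy 2.4.6, pandas 2.3.3 and matplotlib 3.10.9 were used.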

Additional observations from a re-analysis of the deposited data

How the results depend on the processing

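The sign and the side of the threshold were kept by 166 of 180 member values in liver, 188 of 199 in eWAT and 150 of 152 in muscle. The liver count of 0 called genes became 1 without mitochondrially encoded genes, 926 with arrayWeights (4 members), 35 in the study's libraries, 41 with all tissues in 1 fit and 0 to 1 with 1 library left out. The eWAT count of 0 became 220 with arrayWeights (1 member), 161 with all tissues in 1 fit (2 members, *Igfals* and *Igf1*) and 0 to 160 with 1 library left out (0 to 1 member, the 1 without HS3W). The muscle count of 35 became 7 without a filter, 58 without mitochondrially encoded genes, 54 with the replicate block, 66 with voom, 5 with all tissues in 1 fit and 10 to 61 with 1 library left out (13 without CON16M, 10 without CON72M, 61 without HS2M, 15 without HS3M and 23 without HS5M). The block changed no call of a member. For liver against eWAT, 99 became 43 (median-ratio), 49 (quantile), 19 (without mitochondrially encoded genes), 5 (arrayWeights) and 2455 (study's libraries, 4 members). For liver against muscle, 8 became 5 (pseudocount 0.1), 5 (quantile), 4 (without mitochondrially encoded genes), 4 (arrayWeights) and 1286 (study's libraries, 2 members). For eWAT against muscle, 0 became 19 (pseudocount 1), 21 (no filter), 2 (median-ratio), 8 (quantile), 362 (arrayWeights, 1 member) and 170 (study's libraries, 1 member). Between CON liver and eWAT, 8768 became 5189 (median-ratio) and 5198 (quantile). Between CON eWAT and muscle the 8 members became 5 with either, while the 6933 genes became 4720 (median-ratio) and 4675 (quantile). Signs turned in liver for *Igf1* (quantile -0.21, without mitochondrially encoded genes -0.32, arrayWeights -0.06), *Igfbp3* (-0.04 quantile, -0.39 without mitochondrially encoded genes) and *Igfbp7* (-0.17 and -0.34 in the same order), in eWAT for *Igfbp1* (quantile -0.09), *Igfbp2* (arrayWeights -0.15) and *Igfbp6* (arrayWeights 0.05), and in muscle for *Igfals* (quantile 0.03). Between CON liver and eWAT they turned for *Igfals* (1.25 median-ratio, 0.70 quantile, 0.73 without mitochondrially encoded genes, 2.30 in HSD libraries), *Igfbp3* (0.19 median-ratio) and *Igfbp4* (0.92 median-ratio, 0.38 without mitochondrially encoded genes, 1.16 in HSD libraries), and between CON liver and muscle for *Igfbp3* (0.40, 0.26 and 0.51) and *Igfbp7* (0.37, 0.08 and 0.48, in the order median-ratio, quantile, without mitochondrially encoded genes; 0.08 in HSD libraries). With 1 library left out, signs turned within ranges of -0.11 to 0.38 (*Igfbp3*) and -0.19 to 0.58 (*Igfbp7*) in liver, -0.16 to 0.64 (*Igfbp1*), -0.27 to 0.50 (*Igfbp2*) and -0.55 to 0.00 (*Igfbp6*) in eWAT, -0.29 to 0.03 (*Igfbp7*) in muscle, -0.67 to 0.11 (*Igfals*) between CON liver and eWAT, and -0.45 to 0.04 (*Igfbp3*) and -0.51 to 0.13 (*Igfbp7*) between CON liver and muscle. The cause of these moves was not tested. With 3 libraries a group, 1 library decides many values.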
